A study of Mus musculus with 48 samples.

Results

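The gonad primordium transcription factors are 8 genes, Wt1, Nr5a1, Lhx9, Emx2, Nr2f1, Nr2f2, Six4 and Cbx2, which were chosen by name for their known roles before and during gonad formation. All 8 were listed among the 22173 genes counted in somatic cells of the mouse ovary at different stages, among the 13682 genes with FPKM values in induced cells, and among the 32285 genes of a single-cell library. The genital ridge forms as a thickening of the coelomic epithelium over the mesonephros, and most of these factors are present there before the gonad has a sex. Loss of Wt1, Nr5a1, Lhx9 or Emx2 in mice is known to leave the animal without gonads, whereas Cbx2 and Six4 act on the amount of Nr5a1 and on sex determination. Nr2f1 and Nr2f2 are orphan nuclear receptors, and Nr2f2 is known from the mesenchyme around the gonad and from the steroidogenic and stromal lineages of the ovary.

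The study asked whether embryonic stem cells (ESCs) could be turned into gonadal somatic cell-like cells (GSCLCs) that would support meiosis, and 40 of its 48 libraries were used here. Of these, 8 were bulk RNA-seq libraries of gonadal somatic cells, 2 each from female gonads at E12.5, E13.5 and E16.5 (embryonic days) and from ovaries 6 weeks after birth (P6w). A further 31 bulk libraries held cells induced from ESCs and E12.5 cells for reference, and 1 library was single-cell RNA-seq of induced cells at day 6. The ESCs and the mice from which gonads were taken were C57BL/6. The female ESCs were grown on inactivated embryonic fibroblasts from B6C3F1 embryos, in medium with 2 kinase inhibitors and LIF, and fibroblasts were removed before induction by their faster adherence. Induction was on fibronectin with vitamin C (Vc), with AM580, an agonist of retinoic acid receptor alpha, with both (V580), or with neither (Con). These 4 conditions were sampled at 24 h and 48 h with 2 libraries each, and V580 cells were sampled with 3 libraries each at days 4, 6, 8 and 10 (V580_D4 to V580_D10) beside 3 libraries of E12.5 female gonads (E12.5_GC). Gonadal somatic cells and GSCLCs are by the methods the cells that remained after removal of SSEA1-positive cells on a magnetic column, so each bulk sample was a mixture of cell types. Total counts in the stage libraries ranged from 12694769 to 22259044, and the FPKM libraries held about 16440000 to 28310000 fragments as recovered from the low FPKM values.

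Promoter sequence is shown for Nr2f2, Lhx9 and Six4, the members for which sequence upstream of the start and outside the gene's own exons was at hand, because nuclear receptors, the retinoic acid receptors and Nr2f factors among them, bind DNA at cores such as AGGTCA and GGGTCA. RefSeq promoters on GRCm38.p6 were matched for 5 of the 8 members, not for Wt1, Nr5a1 and Cbx2. The promoter of Lhx9 belongs to a start inside the gene, so its stretch lies within the span given for Lhx9 below. Capitals mark the core motif, and sequences run 5′ to 3′ on the gene's strand.
Nr2f2, chr7:70366747-70366996, minus strand: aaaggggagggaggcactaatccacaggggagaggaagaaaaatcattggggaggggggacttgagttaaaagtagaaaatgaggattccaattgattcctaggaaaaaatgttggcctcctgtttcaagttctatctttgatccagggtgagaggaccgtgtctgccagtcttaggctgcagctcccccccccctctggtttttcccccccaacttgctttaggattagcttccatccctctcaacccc
Lhx9, chr1:138842458-138842694, minus strand: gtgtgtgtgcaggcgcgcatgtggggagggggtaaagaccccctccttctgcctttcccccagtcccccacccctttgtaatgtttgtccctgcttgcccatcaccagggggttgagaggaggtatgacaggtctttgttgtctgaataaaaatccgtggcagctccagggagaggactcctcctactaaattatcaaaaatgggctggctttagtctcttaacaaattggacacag
Six4, chr12:73113457-73113675, minus strand: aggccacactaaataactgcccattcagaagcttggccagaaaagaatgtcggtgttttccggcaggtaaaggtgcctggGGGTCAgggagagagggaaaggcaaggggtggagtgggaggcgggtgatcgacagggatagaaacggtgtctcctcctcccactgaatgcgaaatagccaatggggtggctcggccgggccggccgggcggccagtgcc
Six4 has 2 RefSeq starts, and the stretch shown lies before the more upstream one, with GGGTCA 170 bases before that start. Neither motif was found in the window of the other Six4 start, nor on either strand in the Nr2f2 or Lhx9 stretch. Of 32851 promoter windows of 250 bases, 14.0% held AGGTCA and 11.6% held GGGTCA on either strand, and 23.8% held at least 1 of both. The share of G and C in the Lhx9 window (53.6%) and the Six4 window (58.8%) was above the median of 52.4% over all promoters, and that in the Nr2f2 window was below it.

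The stage libraries differed in more than stage. The labels of E16.5 replicate 1 and of the 4 libraries of E12.5 and E13.5 carry the tag L5, read here as a sequencing lane, and E16.5 replicate 2 and both P6w libraries carry L1. The L1 libraries thus held all of P6w, and the difference between the tags could be estimated only from the E16.5 pair. An edgeR fit with the tag as a term, added after seeing the data, was set beside the fit by stage alone. The E16.5 replicates differed more than other pairs, with a chi-square of 37.9 per degree of freedom over genes against 6.02 to 6.93. All 4 genes of the Y-linked list were counted in both E12.5 libraries, with sums of 8.399 and 9.496 CPM (counts scaled to library size), Ddx3y being the most abundant, although the labels give female gonads. In the other 6 stage libraries these sums lay between 0 and 0.254 CPM, with 3 or 4 of the 4 genes at 0. The liver markers summed to 129.4 and 124.1 CPM at E13.5 (Alb the most abundant) and to 122.4 and 134.1 CPM at P6w (Apoa1), against 2.174 to 4.026 CPM at E12.5 and E16.5. Erythroid markers, led by the embryonic globin Hbb-y, made up 12670 and 13940 CPM at E12.5 and 24940 and 23660 CPM at E13.5, and only 108.4 and 124.4 CPM at P6w. The part of these cells in the values below was not tested, and in bulk samples fewer cells of a type and less RNA per cell cannot be told apart. The supporting-cell list (7 genes, none at 0) summed to 845.3 and 907.5 CPM at E12.5, to 949.8 and 908.6 CPM at E13.5, to 822.7 and 829.2 CPM at E16.5, and to 433.5 and 458.9 CPM at P6w, so these markers of gonadal somatic cells were present at each stage.

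All 8 members passed the filter on low counts. On GRCm38, Wt1 lies on chromosome 2 from 105126529 to 105173616, Nr5a1 on chromosome 2 from 38692656 to 38714542, Lhx9 on chromosome 1 from 138825186 to 138848577, and Emx2 on chromosome 19 from 59458372 to 59465357. Nr2f1 lies on chromosome 13 from 78188973 to 78199757, Nr2f2 on chromosome 7 from 70351944 to 70366735, Six4 on chromosome 12 from 73099609 to 73113456, and Cbx2 on chromosome 11 from 119022962 to 119031270. At E12.5 Wt1, a zinc finger factor of the coelomic epithelium and of its supporting-cell descendants, was the most abundant member per length, at 86.3 CPM per kb of transcript, followed by Nr5a1 at 49.0, Lhx9 at 32.5, Emx2 at 31.6 and Nr2f2 at 23.3 CPM per kb. Cbx2 at 5.88, Nr2f1 at 3.20 and Six4 at 0.254 CPM per kb were far lower. At P6w the order was Nr5a1 (75.7), Nr2f2 (8.10), Wt1 (5.204), Cbx2 (4.68) and Emx2 (2.66), with Lhx9, Nr2f1 and Six4 below 0.4 CPM per kb. Thus Nr5a1 moved from the second place to the first while Lhx9 fell behind Cbx2.

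**Figure D1:**
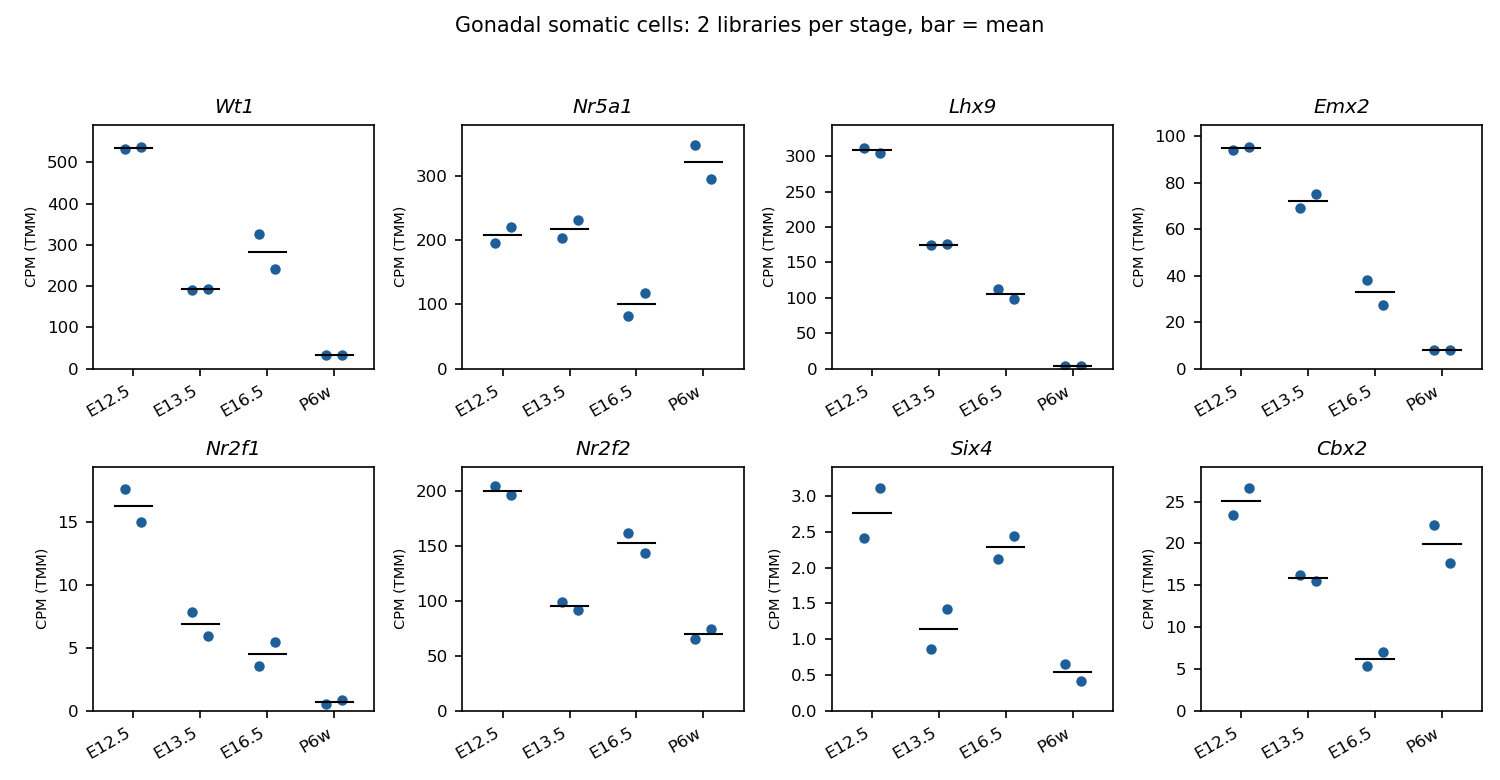
Level of each of the 8 genes in CPM (vertical axes) in the gonadal somatic cells of each stage (horizontal axes). Points are single libraries (2 per stage) and lines mark the stage means: Wt1, Lhx9, Emx2 and Nr2f1 had their lowest values at P6w, and Nr5a1 had its highest there.

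Wt1 stood at 532.0 and 537.1 CPM in the E12.5 libraries, 191.5 and 192.3 CPM at E13.5, 325.7 and 240.3 CPM at E16.5, and 32.2 and 32.3 CPM at P6w. No libraries of different stages overlapped, as was usual (68.0 to 81.5% of all genes tested did not overlap between a given pair of stages), and the course was not monotonic. Against E12.5 it was lower at E13.5 (log2 fold change −1.48, SE 0.135, edgeR adjusted p = 2.73e-06), and from E13.5 to E16.5 it rose by 0.56 on the log2 scale (edgeR adjusted p = 0.00240). This rise was 0.30 with gene length as an offset (edgeR adjusted p = 0.0482) and 0.33 without E16.5 replicate 1 (edgeR adjusted p = 0.00636).

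Lhx9, a LIM homeodomain factor, showed the steepest loss. Its libraries held 312.4 and 305.2 CPM at E12.5, 174.6 and 175.7 CPM at E13.5, 112.6 and 98.7 CPM at E16.5, and 3.60 and 3.58 CPM at P6w. Each stage lay below the one before, with no overlap. The difference between P6w and E12.5 was 85.9-fold (log2 fold change −6.43, SE 0.160, edgeR adjusted p = 2.62e-13).

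The homeobox gene Emx2 followed the same descent with 94.2 and 95.6 CPM at E12.5, 69.0 and 75.2 CPM at E13.5, 38.3 and 27.4 CPM at E16.5, and 8.17 and 7.82 CPM at P6w. The P6w libraries were 11.9-fold below E12.5 (log2 fold change −3.57, SE 0.181, edgeR adjusted p = 3.56e-10). Emx2 overlaps an antisense gene, Emx2os, whose raw counts of 1349 and 1518 at E12.5 were followed by 1467 and 1570 at E13.5, then by 739 and 582 at E16.5 and by 79 and 62 at P6w. The spans of both genes overlap only at an end. The library kit does not mark strand, so reads from the shared stretch cannot be assigned to either gene by strand. The same holds for the shared stretches of Nr2f2, Nr2f1 and Nr5a1 with their antisense partners.

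Nr5a1, the nuclear receptor that drives steroidogenic genes, had its highest values at P6w. Its values were 195.8 and 219.4 CPM at E12.5, 203.1 and 230.3 CPM at E13.5, 82.4 and 117.8 CPM at E16.5, and 347.4 and 294.9 CPM at P6w. The E12.5 and E13.5 libraries overlapped, the E16.5 libraries were the lowest and the P6w libraries the highest. E16.5 lay 2.08-fold below E12.5 (edgeR adjusted p = 0.000101), and P6w lay 1.55-fold above E12.5 (log2 fold change 0.63, SE 0.154, edgeR adjusted p = 0.00305). Without P6w replicate 1 this last difference was 0.50 (edgeR adjusted p = 0.0526), and with the lane tag as a term it was 0.11 (edgeR adjusted p = 0.641).

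Genes known to be bound by Nr5a1 in gonad or adrenal were followed beside it, on a list of 12. From E12.5 to P6w 10 of them were higher and 0 lower, with a median log2 fold change of 3.20 against −0.04 over all 16398 genes tested, of which 25.4% were higher and 27.5% lower. Inha, the alpha subunit of inhibin, rose from 120.4 CPM (SD 2.85, n = 2) to 29830 CPM (SD 574, n = 2). Hsd3b1 and Cyp11a1, enzymes of steroid synthesis, rose from 23.2 CPM (SD 0.617) to 5891 CPM (SD 26.4) and from 3.96 CPM (SD 0.293) to 1250 CPM (SD 54.8). From E12.5 to E13.5, where the Nr5a1 libraries overlapped, 5 genes of that list were higher and 2 lower, where 23.8% of all genes were higher and 22.1% lower.

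The orphan nuclear receptors Nr2f2 and Nr2f1 differed in level and course. Nr2f2 held 204.7 and 196.3 CPM at E12.5, 99.3 and 91.4 CPM at E13.5, 161.6 and 143.4 CPM at E16.5, and 65.5 and 74.2 CPM at P6w. It thus had the same order of stages as Wt1, high at E12.5, lower at E13.5, higher again at E16.5 and lowest at P6w, without overlap between stages. Nr2f1 held 17.6 and 15.0 CPM at E12.5, 7.82 and 5.93 CPM at E13.5, 3.51 and 5.45 CPM at E16.5, and 0.490 and 0.832 CPM at P6w. From E13.5 to E16.5 Nr2f2 rose by 0.68 on the log2 scale (edgeR adjusted p = 0.000255), and Nr2f1 did not pass the test (−0.64, edgeR adjusted p = 0.0619). With gene length as an offset the Nr2f2 difference was 0.23 (edgeR adjusted p = 0.103), and that of Nr2f1 then passed the test at −0.77 (edgeR adjusted p = 0.0315). Without the filter on low counts the Nr2f1 difference was −0.63 (edgeR adjusted p = 0.0415), and without E13.5 replicate 2 or E16.5 replicate 2 it passed at −0.84 (edgeR adjusted p = 0.0417) and −0.97 (edgeR adjusted p = 0.00903). The interstitial list (7 genes, none at 0) summed to 999.1 and 944.6 CPM at E13.5 and to 3190 and 2930 CPM at E16.5, with Col1a1 the most abundant at E16.5, and its part in the rise of Nr2f2 was not tested.

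Cbx2, a subunit of Polycomb repressive complex 1, held 23.4 and 26.7 CPM at E12.5, 16.2 and 15.5 CPM at E13.5, 5.32 and 7.04 CPM at E16.5, and 22.2 and 17.7 CPM at P6w. The lowest libraries were those of E16.5, and P6w lay 3.25-fold above them (edgeR adjusted p = 4.98e-06). Against E12.5 the P6w libraries differed by −0.33 on the log2 scale, which did not pass the test (edgeR adjusted p = 0.158). Among 11 partners of Cbx2 in the complex, 3 were higher (Cbx6, Cbx7, Ring1) and 4 lower, Pcgf2, Phc1 and Rnf2 among them, at P6w than at E12.5, shares near those of all genes (25.4% higher and 27.5% lower). Six4, which acts upstream of Nr5a1, stayed low throughout, from 2.41 and 3.11 CPM at E12.5 to 0.654 and 0.416 CPM at P6w, which was 5.10-fold lower (edgeR adjusted p = 0.00133).

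Counted over the list, 7 of the 8 members were lower at E13.5 than at E12.5 and 0 higher, where 22.1% of all genes tested were lower and 23.8% higher. Their median log2 fold change was −0.95 against 0.03 over all genes. At E16.5 against E12.5, 7 members were lower, all but Six4, where 17.1% of all genes were lower. That background depended on the E12.5 libraries, with 6160 genes called in either direction and 3814 or 3899 without E12.5 replicate 1 or 2. At P6w 6 members were lower and Nr5a1 alone was higher, where 27.5% of genes were lower and 25.4% higher. Between E13.5 and E16.5 Wt1 and Nr2f2 were higher (28.7% of all genes) and Cbx2, Emx2, Nr5a1 and Lhx9 lower (25.4%).

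The calls at E13.5 were not equally firm. Emx2 (log2 fold change −0.40, edgeR adjusted p = 0.0433) missed the threshold by DESeq2 (adjusted p = 0.0534) and without any 1 of the E12.5, E13.5 or P6w libraries (edgeR adjusted p from 0.0584 to 0.237). Six4 (−1.27, edgeR adjusted p = 0.0270) missed it by DESeq2, with gene length as an offset (−0.66, edgeR adjusted p = 0.272), and without E12.5 replicate 1, E12.5 replicate 2 or E13.5 replicate 1 (edgeR adjusted p = 0.0560, 0.164 and 0.165). Cbx2 (−0.66, edgeR adjusted p = 0.00952) missed it without E12.5 replicate 2 or E13.5 replicate 2 (edgeR adjusted p = 0.0924 and 0.0645). Wt1, Nr2f2, Lhx9 and Nr2f1 passed in each of these fits. Over all genes the difference between E13.5 and E12.5 depended on transcript length (Spearman rho −0.494), in that shorter transcripts were higher at E13.5, and the length offset made the members' differences smaller for Wt1 (−1.21 in place of −1.48), Nr2f2 (−0.60 in place of −1.07) and Lhx9 (−0.29 in place of −0.82, edgeR adjusted p = 0.0400), and larger for Emx2 (−0.63 in place of −0.40, edgeR adjusted p = 0.00630).

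The other genes known from gonad formation were listed beside the members (15 genes, 13 tested). At E13.5 against E12.5, 1 was higher (Gadd45g) and 7 lower, Zfpm2 and Cited2 among them, with a median of −0.42, where 23.8% of all genes were higher and 22.1% lower. At P6w, 2 were higher (Igf1r and Insr, receptors of the insulin family) and 7 lower, where the shares of all genes were 25.4% and 27.5%. Gata4, a zinc finger factor required for the first thickening of the ridge, had 181.0 CPM (SD 3.08, n = 2) at E12.5 and 119.7 CPM (SD 0.814, n = 2) at P6w, among the 7 lower. Of the listed partners and relatives of Six4, 1 of 7 tested was lower at E13.5 (Eya3), and of the 3 tested relatives and cofactors of Lhx and Emx, 0 changed at E13.5.

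In cells induced with V580 the members fell into a part that was present and a part that was nearly absent. Wt1 had 23.7, 23.0 and 21.6 FPKM at day 4, 42.9, 47.4 and 45.1 FPKM at day 6, 58.9, 60.6 and 60.5 FPKM at day 8, and 52.0, 53.4 and 51.7 FPKM at day 10, against 67.1, 64.5 and 86.0 FPKM in E12.5_GC. All induced libraries lay below all E12.5_GC libraries, and those of day 8 came closest to them. On log2(FPKM + 1), the scale of all FPKM tests here, the difference from E12.5_GC was −1.62 (SE 0.0873, limma adjusted p = 3.11e-10) at day 4 and −0.26 (SE 0.0873, limma adjusted p = 0.0187) at day 8. The latter was −0.13 without E12.5_GC replicate 3 (limma adjusted p = 0.0491).

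**Figure D2:**
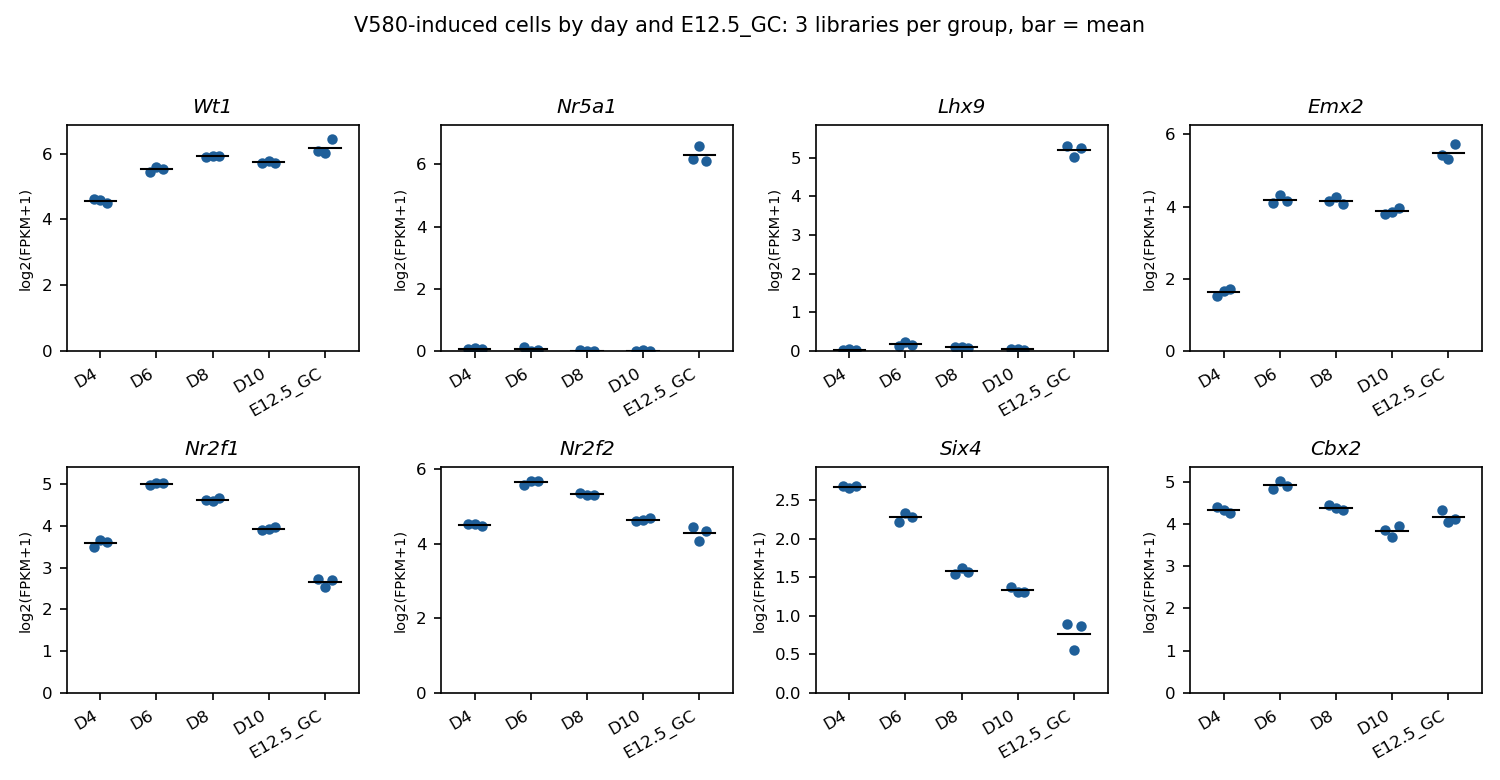
FPKM of each of the 8 genes on a log2(FPKM + 1) axis (vertical) in V580-induced cells at days 4, 6, 8 and 10 and in E12.5_GC (horizontal). Points are single libraries (3 per group) and lines mark group means: Nr5a1 and Lhx9 lay near 0 on all induced days and above 30 FPKM in E12.5_GC, while Nr2f1 was higher in every induced library than in E12.5_GC.

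Nr5a1 was nearly absent from the induced cells. It had 0.0518, 0.0667 and 0.0492 FPKM at day 4, 0.0828, 0.0106 and 0.0198 FPKM at day 6, 0.0193, 0.0106 and 0 FPKM at day 8, and 0, 0.0167 and 0 FPKM at day 10, against 71.7, 95.1 and 67.8 FPKM in E12.5_GC. In recovered fragments this was 17, 11, 3 and 2 over the 3 libraries of days 4, 6, 8 and 10, against 23545 in E12.5_GC. Scaled to library size Nr5a1 was thus 1398-fold lower at day 4 (95% interval 872.8 to 2400) and 2082-fold lower at day 6 (1163 to 4171), by counting error only. Of the 11 fragments of day 6, 8 came from replicate 1, and without it the fold was 5108 (1748 to 24770). For day 10 the ratio was 11870, with an interval from 3285 to 98000, and both fragments came from replicate 2.

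Lhx9 was about as low in fragments as Nr5a1 at day 4 and above it on the later days, with a small peak at day 6. It had 0.0185, 0.0426 and 0.0176 FPKM at day 4, 0.0878, 0.166 and 0.124 FPKM at day 6, 0.0731, 0.0759 and 0.0526 FPKM at day 8, and 0.0331, 0.0409 and 0.0202 FPKM at day 10, against 38.4, 31.6 and 37.2 FPKM in E12.5_GC. Every day 6 library lay above every day 4 library, and 72.8% of all genes tested did not overlap between these days either. In fragments Lhx9 went from 18 over the day 4 libraries to 82, 47 and 22 over those of the following days, against 24077 in E12.5_GC, and at day 6 it was 285.6-fold lower than there (230 to 359.2). On the FPKM scale the difference from day 4 to day 6 was 0.13 and did not pass the test (limma adjusted p = 0.114), whereas edgeR on the recovered fragments gave 2.24 (SE 0.338, adjusted p = 7.99e-05). Nr5a1 and Lhx9 passed the filter on low values only through E12.5_GC, so their difference from it is a description. They are left out of the counts against E12.5_GC by the 2-fold rule below.

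Emx2 was the member that rose most between days 4 and 6. Its FPKM values were 1.87, 2.17 and 2.27 at day 4, 16.2, 18.8 and 17.0 at day 6, 16.6, 18.3 and 15.7 at day 8, and 12.9, 13.4 and 14.5 at day 10, against 41.7, 38.8 and 52.5 in E12.5_GC. Days 6 and 8 overlapped, and all induced libraries lay below E12.5_GC. The rise was 2.56 (SE 0.101, limma adjusted p = 8.00e-11), and day 6 remained 1.30 below E12.5_GC (SE 0.101, limma adjusted p = 3.01e-08).

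Nr2f1 and Nr2f2 both peaked at day 6 above the gonad. Nr2f1 had 10.3, 11.6 and 11.3 FPKM at day 4, 30.4, 31.7 and 31.7 FPKM at day 6, 23.5, 23.2 and 24.4 FPKM at day 8, and 14.0, 14.1 and 14.8 FPKM at day 10, against 5.61, 4.81 and 5.57 FPKM in E12.5_GC. Nr2f2 had 22.0, 22.2 and 21.4 FPKM at day 4, 47.0, 50.6 and 50.6 FPKM at day 6, 40.6, 38.5 and 38.6 FPKM at day 8, and 23.4 to 25 FPKM at day 10 (mean 24.1, SD 0.852), against 21.1, 15.7 and 19.2 FPKM in E12.5_GC. All induced libraries lay above all E12.5_GC libraries for both genes, by little for Nr2f2 at days 4 and 10. At day 6 Nr2f1 was 2.35 above E12.5_GC (SE 0.0626, limma adjusted p = 2.11e-13) and Nr2f2 was 1.37 above it (SE 0.0812, limma adjusted p = 1.36e-09). At day 8 the Nr2f2 difference was 1.04, and without E12.5_GC replicate 2 it was 0.93, under the 2-fold limit.

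Six4 and Cbx2 took other courses. Six4 had 5.40, 5.32 and 5.42 FPKM at day 4, 3.67, 4.06 and 3.88 FPKM at day 6, 1.93, 2.07 and 1.96 FPKM at day 8, and 1.59, 1.49 and 1.48 FPKM at day 10, against 0.855, 0.467 and 0.823 FPKM in E12.5_GC. It was lower on each later day without overlap, and the lowest induced library was still above the highest of E12.5_GC. Over all genes tested, 59.1 to 72.8% did not overlap between consecutive days and 58.3 to 67.9% between a day and E12.5_GC. Cbx2 had 20.1, 19.1 and 18.2 FPKM at day 4, 27.3, 31.4 and 28.9 FPKM at day 6, 20.6, 19.8 and 19.2 FPKM at day 8, and 11.8 to 14.5 FPKM at day 10 (mean 13.3, SD 1.33), against 18.9, 15.6 and 16.3 FPKM in E12.5_GC. It was highest at day 6 and lowest at day 10, and the day 4 libraries overlapped those of E12.5_GC. The pluripotency list (5 genes, none at 0) had a similar descent to Six4, with sums of 22.6, 20.1 and 22.8 FPKM at day 4 and 4.32, 3.87 and 3.45 FPKM at day 10, and its part in the Six4 values was not tested.

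By the rule of adjusted p below 0.05 and at least 2-fold, 3 of the 8 members rose from day 4 to day 6 (Emx2, Nr2f1, Nr2f2) and 0 fell, where 3.41% of the 11512 genes tested were higher. Wt1 was just inside 2-fold at 0.95 (SE 0.0873, limma adjusted p = 5.61e-07), and edgeR on the recovered fragments, which called 7.86% of genes higher, put it just past it, at 1.01. From day 6 to day 8 and from day 8 to day 10, 0 members passed by limma (2.55% and 1.29% of genes), though 5 had an adjusted p below 0.05 in each step, where 20.3% of genes were higher and 20.9% lower to day 8 and 15.0% lower to day 10 by p alone. The largest of these smaller differences were −0.71 for Six4 to day 8 and −0.69 for Nr2f1 and −0.68 for Nr2f2 to day 10. Among the 5 members with an adjusted p below 0.05 from day 6 to day 8, Wt1 alone was higher, by 0.40 (limma adjusted p = 0.00195).

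Six4 was below 1 FPKM in every E12.5_GC library and passed the filter only through the induced cells. Its difference from E12.5_GC, 1.90 at day 4 and 1.51 at day 6, is therefore a description too. Of the members not carried by 1 side alone, Wt1 and Emx2 were lower at day 4 than in E12.5_GC, where 11.3% of all genes were lower and 9.13% higher. Nr2f1, 0.93 above E12.5_GC at day 4, was just inside 2-fold and just past it by edgeR on fragments (1.01) and with a pseudocount of 0.1 (1.04). At day 6 Emx2 was lower (8.11% of genes) and Nr2f1 and Nr2f2 were higher (7.06%). At day 8 Emx2 was lower (6.07%) and Nr2f1 and Nr2f2 higher (6.9%), and at day 10 Emx2 was lower (7.23%) and Nr2f1 higher (9.16%). Six4, at 0.81 and 0.56 above E12.5_GC on days 8 and 10, was under the 2-fold limit on log2(FPKM + 1) but past it with a pseudocount of 0.1 (1.39 and 1.03) and by edgeR on fragments (1.48 and 1.07). These 4 comparisons share the same E12.5_GC libraries. The mixtures also differed: the erythroid markers (2 genes in this table) summed to 4108, 1577 and 982.5 FPKM in E12.5_GC, led by Hba-a1, and to less than 1 FPKM in each induced library. The supporting-cell list (7 genes, none at 0) summed to 561.5, 646.0 and 555.4 FPKM in E12.5_GC and to 126.5, 125.9 and 123.0 FPKM at day 6, led by Wnt6. The interstitial list (6 genes, none at 0) went from 129.1, 126.8 and 111.2 FPKM at day 4, led by Dlk1, to 1739, 1480 and 1832 FPKM at day 10, led by Col1a1, against 315.3, 317.8 and 276.4 FPKM in E12.5_GC. The mesothelial list (5 genes, none at 0), led by Krt19 in the induced cells, summed to 273.3, 280.6 and 274.4 FPKM at day 6 against 65.7, 73.4 and 61.0 FPKM in E12.5_GC, led there by Upk3b. The part of these cell types in the members' values was not tested.

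Among the other gonad formation genes (10 of 15 tested), Gata4, Osr1 and Zfpm2 rose from day 4 to day 6 and 0 fell, where 3.41% of all genes rose. Gata4 went from 4.94 FPKM (SD 0.256, n = 3) at day 4 to 17.0 (SD 0.908) at day 6, 29.97 (SD 0.784) at day 8 and 46.2 (SD 0.382) at day 10, and stayed below 143.5 FPKM (SD 7.38) in E12.5_GC. Osr1, known from the intermediate mesoderm, went from 4.32 FPKM (SD 0.121) to 10.99 FPKM (SD 0.154) and was then above E12.5_GC, which had 2.56 FPKM (SD 0.564). At day 6, 5 of the 10 were lower than in E12.5_GC (Cited2, Gadd45g, Gata4, Numb, Zfpm2) and Osr1 was higher, where 8.11% of all genes were lower and 7.06% higher. Of the 12 genes with known Nr5a1 binding 7 were tested, and at day 6 Amhr2, Fdxr and Inha were lower than in E12.5_GC and 0 higher (the same 8.11% and 7.06%), leaving out Hsd3b1, which passed the filter through E12.5_GC alone. Inha, for example, had 5.65 FPKM (SD 0.181, n = 3) at day 6 and 36.4 FPKM (SD 7.48, n = 3) in E12.5_GC. Among the 11 Polycomb partners of Cbx2, Cbx7 was higher on each induced day than in E12.5_GC, with 20.7 FPKM (SD 0.809) at day 6 against 0.502 FPKM (SD 0.312). Cbx7 passed the filter only through the induced cells, so this difference is a description. Dach2, a partner of Six4-type factors, rose from 0.409 FPKM (SD 0.0938) to 5.26 FPKM (SD 0.252) between days 4 and 6. Ldb2, a cofactor of LIM homeodomain factors such as Lhx9, was lower than in E12.5_GC on each day, with 1.14 FPKM (SD 0.134) at day 6 against 14.1 FPKM (SD 0.921). Cbx7, Dach2 and Ldb2 are given as single genes, without a count over the lists that hold them.

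In the first 48 h of induction Wt1, Cbx2 and Six4 were the members above the filter of 1 FPKM in 2 libraries. At 24 h Wt1 had 8.88 and 8.46 FPKM in Con, 9.92 and 9.35 FPKM with Vc, 7.49 and 6.58 FPKM with AM580, and 6.30 and 6.34 FPKM with V580. At 48 h it had 9.86 and 10.3 FPKM in Con, 11.5 and 12.8 FPKM with Vc, 12.2 and 12.47 FPKM with AM580, and 14.3 and 14.2 FPKM with V580. V580 was thus the lowest condition at 24 h and the highest at 48 h, AM580 lay below Con at 24 h and above it at 48 h, and the mean with Vc lay above Con at both times. Both V580 libraries lay outside the range of Con each time. V580 and Con likewise did not overlap in 63.4% of all genes tested at 24 h and 80.5% at 48 h. The difference from Con was −0.40 for V580 at 24 h (limma adjusted p = 0.000215) and 0.46 at 48 h (limma adjusted p = 1.95e-05), both under 2-fold.

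**Figure D3:**
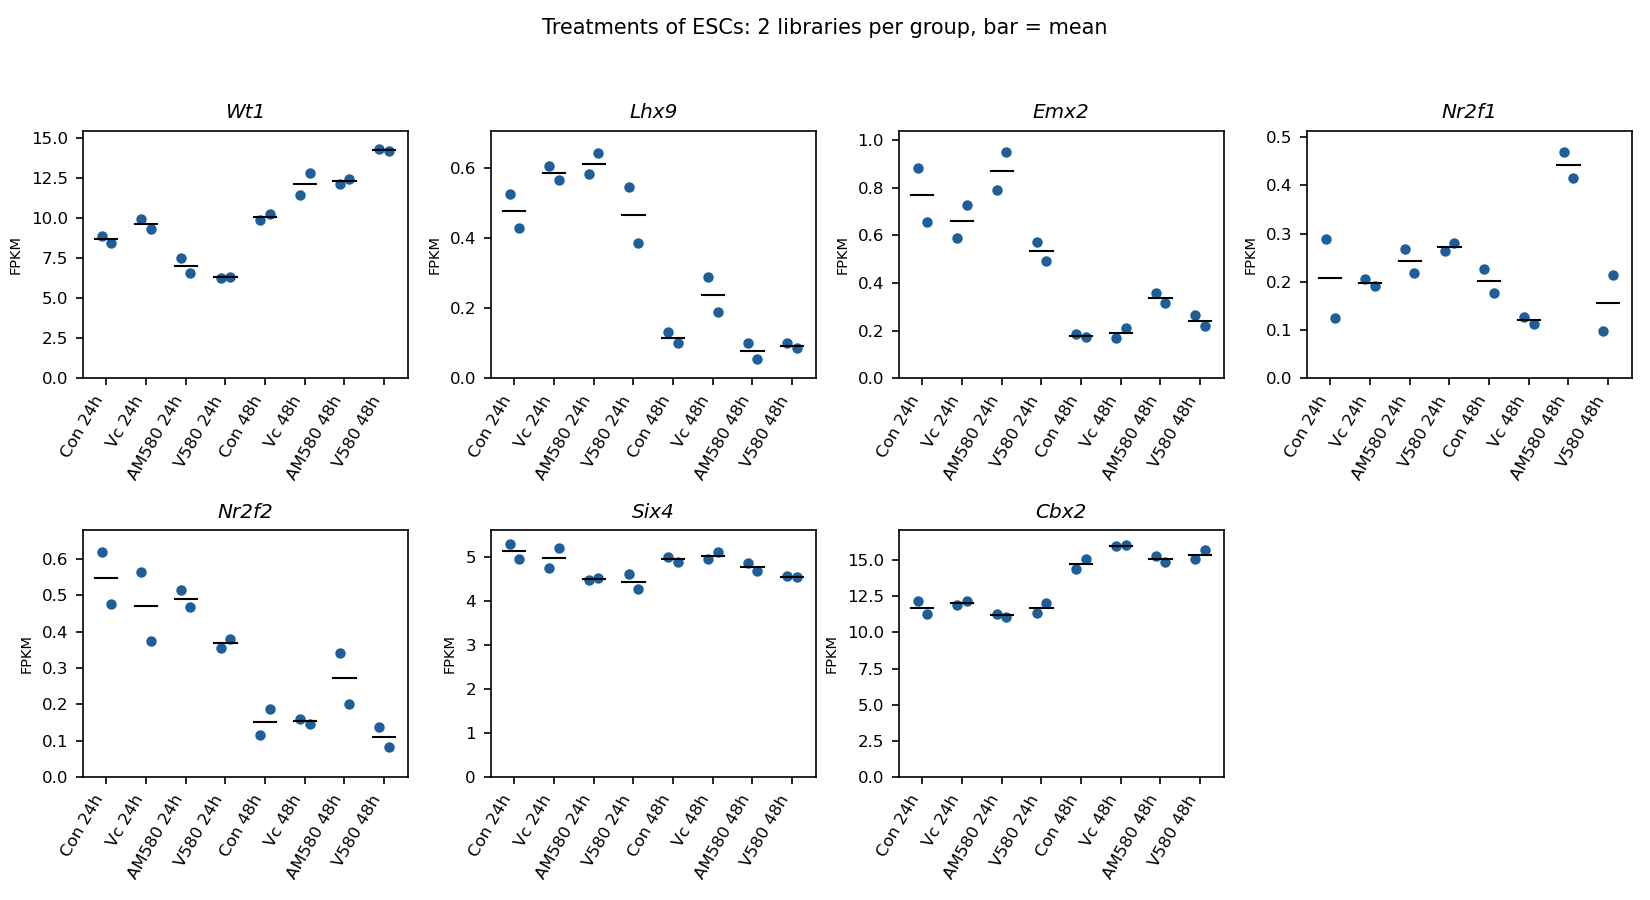
FPKM of members, Wt1, Cbx2 and Six4 among them (vertical axes), in cells treated with neither compound (Con), vitamin C (Vc), AM580 or both (V580) for 24 h and 48 h (horizontal axes). Points are single libraries (2 per group): the V580 libraries were the lowest for Wt1 at 24 h, at 6.30 and 6.34 FPKM, and the highest at 48 h, at 14.3 and 14.2 FPKM.

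For the other treatments the Wt1 difference from Con at 24 h was −0.27 with AM580 (limma adjusted p = 0.00830) and 0.14 with Vc (limma adjusted p = 0.174). At 48 h it was 0.27 with AM580 (limma adjusted p = 0.00206) and 0.25 with Vc (limma adjusted p = 0.0182). Adding Vc to AM580 changed Wt1 by 0.20 at 48 h (limma adjusted p = 0.0411), which missed the threshold with a replicate block (limma adjusted p = 0.0523). At 24 h this difference was −0.13 (limma adjusted p = 0.181). Of Wt1, Cbx2 and Six4, 0 passed the 2-fold rule against Con of the same time, where the share of genes called was 0.0846% for Vc, 0.404% for AM580 and 0.695% for V580 at 24 h, and 0.047%, 3.23% and 3.18% at 48 h. The share for Vc at 48 h stands for 5 genes, which became 8 without Con_48h replicate 1 or Vc_48h replicate 1. Cbx2 had 12.1 and 11.3 FPKM in Con at 24 h and 14.4 and 15.0 FPKM at 48 h, a difference of 0.31 (limma adjusted p = 5.03e-05) that is likewise under 2-fold.

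The remaining members were below 1 FPKM in all of these libraries. In Con, Emx2 had 0.881 and 0.657 FPKM at 24 h and 0.184 and 0.174 FPKM at 48 h. Lhx9 had 0.525 and 0.427 FPKM at 24 h and 0.133 and 0.1001 FPKM at 48 h, and Nr2f2 had 0.619 and 0.476 FPKM at 24 h and 0.117 and 0.187 FPKM at 48 h. All 3 were lower at 48 h without overlap, but the Con libraries of the times did not overlap in 82.0% of the 10644 genes tested either. By edgeR on the recovered fragments these 3 fell by 2.10, 2.04 and 1.85 on the log2 scale (adjusted p = 6.92e-06, 2.90e-06 and 1.73e-05), where 9.29% of the 12536 genes tested were lower. Nr2f1 had 0.290 and 0.126 FPKM in Con at 24 h and 0.227 and 0.177 FPKM at 48 h. It did not pass this test (−0.06, edgeR adjusted p = 0.901). The interstitial list (6 genes, none at 0, led by Col1a1) summed to 131.2 and 121.1 FPKM in Con at 24 h and to 32.7 and 34.2 FPKM at 48 h, and the macrophage list went from 46.1 and 44.1 FPKM to 8.64 and 8.70 FPKM. The part of cells carried over from the feeder layer in these low values was not tested. Nr5a1 was at 0 in 7 of the 8 libraries at 24 h and at most 0.0593 FPKM at 48 h.

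Nr2f1 at 48 h had 0.227 and 0.177 FPKM in Con, 0.470 and 0.415 FPKM with AM580, and 0.0982 and 0.215 FPKM with V580. The AM580 libraries were the highest and V580 overlapped Con. By edgeR on the recovered fragments Nr2f1 was 1.15 higher with AM580 than in Con (SE 0.324, adjusted p = 0.00619; 6.25% of genes were higher), and V580 was 1.51 below AM580 (SE 0.348, adjusted p = 0.00547; 0.973% of genes were lower). Nr2f2 was also lower in V580 than in AM580 at 48 h, by 1.28 (SE 0.350, adjusted p = 0.0165). Lhx9 was higher with Vc than in Con at 48 h by 1.06 (SE 0.305, adjusted p = 0.0301; 0.383% of genes were higher). Among the other gonad formation genes, Gata4 was higher with AM580 than in Con at 48 h by 1.85 on log2(FPKM + 1). It had 0.803 FPKM (SD 0.0857, n = 2) in Con, 5.52 FPKM (SD 0.280, n = 2) with AM580 and 2.35 FPKM (SD 0.427, n = 2) with V580. The mean in Con was under the filter value of 1 FPKM, so this difference is a description. Gata4 is given as a single gene, without a count over its list.

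Across the 31 FPKM libraries the members had different neighbours in expression, given as Pearson r of log2(FPKM + 1) among 11819 genes, which describes libraries that share treatments and days. Nr2f1 and Nr2f2 ran together (r = 0.985), as did Wt1 and Emx2 (r = 0.942), whereas Six4 ran against Emx2 (r = −0.857). The genes most like Wt1 were Zkscan3 (r = 0.986), Mgst1 (r = 0.984) and Fam171a2 (r = 0.983), and those most like Emx2 were Cntln, Pcsk5 and Nfia. Nr2f2 was most like Col4a6 (r = 0.994), Ltbp1 and Gpc6, and Nr2f1 most like Tmtc2 (r = 0.994), Fbxl7 and Sema3c. Nr5a1 was most like Tmem174 (r = 0.999) and Cpa1, and Lhx9 like Gldn (r = 0.995), Mpeg1 and Akr1cl, all genes high in E12.5_GC, so that these likenesses rest on its 3 libraries. Six4 was most like Bub1b (r = 0.984), Ndc80 (r = 0.962) and Sema4d (r = 0.96). Bub1b and Ndc80 belong to the mitotic spindle checkpoint and kinetochore. Cbx2 was most like Ccnj (r = 0.938), a lower likeness than that of any other member.

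In the single-cell library of day 6, 15315 of 15412 barcodes were kept as cells, with a median of 9281 UMIs (unique molecular identifiers, 1 per captured RNA molecule). With 1 library there is no test, and the intervals cover counting error only. Nr2f2 had a UMI in 62.9% of cells (95% exact binomial interval 62.1 to 63.7), Wt1 in 52.9% (52.1 to 53.7), Nr2f1 in 46.2% (45.4 to 47.0) and Emx2 in 30.4% (29.7 to 31.1). Cbx2 had a UMI in 16.8% and Six4 in 16.2%. Lhx9 was found in 107 cells (0.699%) and Nr5a1 in 6 cells (0.0392%). Thinned to 2000 UMIs a cell, with 3800 shallower cells left out, the shares were 39.0% for Nr2f2, 29.3% for Wt1, 21.8% for Nr2f1 and 11.6% for Emx2, and Nr5a1 was left in 0 of 11515 cells.

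The cells were described by clusters, numbered by size and given with their leading genes. Cluster 1 (3053 cells, led by Sv2a with the mesothelial genes Upk3b and Lrrn4) and cluster 2 (1921 cells, led by the cell cycle genes Mki67 and Aspm) held most of the Wt1 UMIs (12154 and 10456 of 30706), at 3.13 (95% exact Poisson interval 3.07 to 3.18) and 3.00 (2.95 to 3.06) UMIs per 10000. Cluster 3 (1621 cells, led by Itga8 and Col6a2) had 1.49 Wt1 UMIs per 10000, cluster 6 (1060 cells, led by Cxcl15 and Mal) 0.568 and cluster 5 (1297 cells, led by Hkdc1 and Cubn) 0.366. The 7 markers of extraembryonic endoderm summed to 11.4 UMIs per 10000 in cluster 5, led by Lama1, against 0.353 in cluster 1. The next highest sum was 3.85, led by Sox17, in cluster 7 (859 cells, led by Cited1 and Pitx1). None of the 7 markers was at 0 in any of these clusters. Extraembryonic endoderm is not a cell type known for Wt1, and 28.4% of cluster 5 cells had a Wt1 UMI at a median of 18147 UMIs, against 89.7% of cluster 1 cells at a median of 12103. In thinned cells these shares were 6.83% and 45.0%. Whether the Wt1 UMIs of cluster 5 came from its own cells was not tested. Cluster 0 (3419 cells, led by Gm42418) had a median of only 1456 UMIs and is given no name. Cluster 4 (1341 cells), led by Gm26917 and Mir99ahg with mitochondrial genes such as mt-Cytb among its leading genes, was also shallow, at a median of 2025 UMIs, and is given no name. Its rate of Wt1 was the highest of all clusters, 3.52 UMIs per 10000 (3.32 to 3.72), with Wt1 in 43.8% of its thinned cells.

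**Figure D4:**
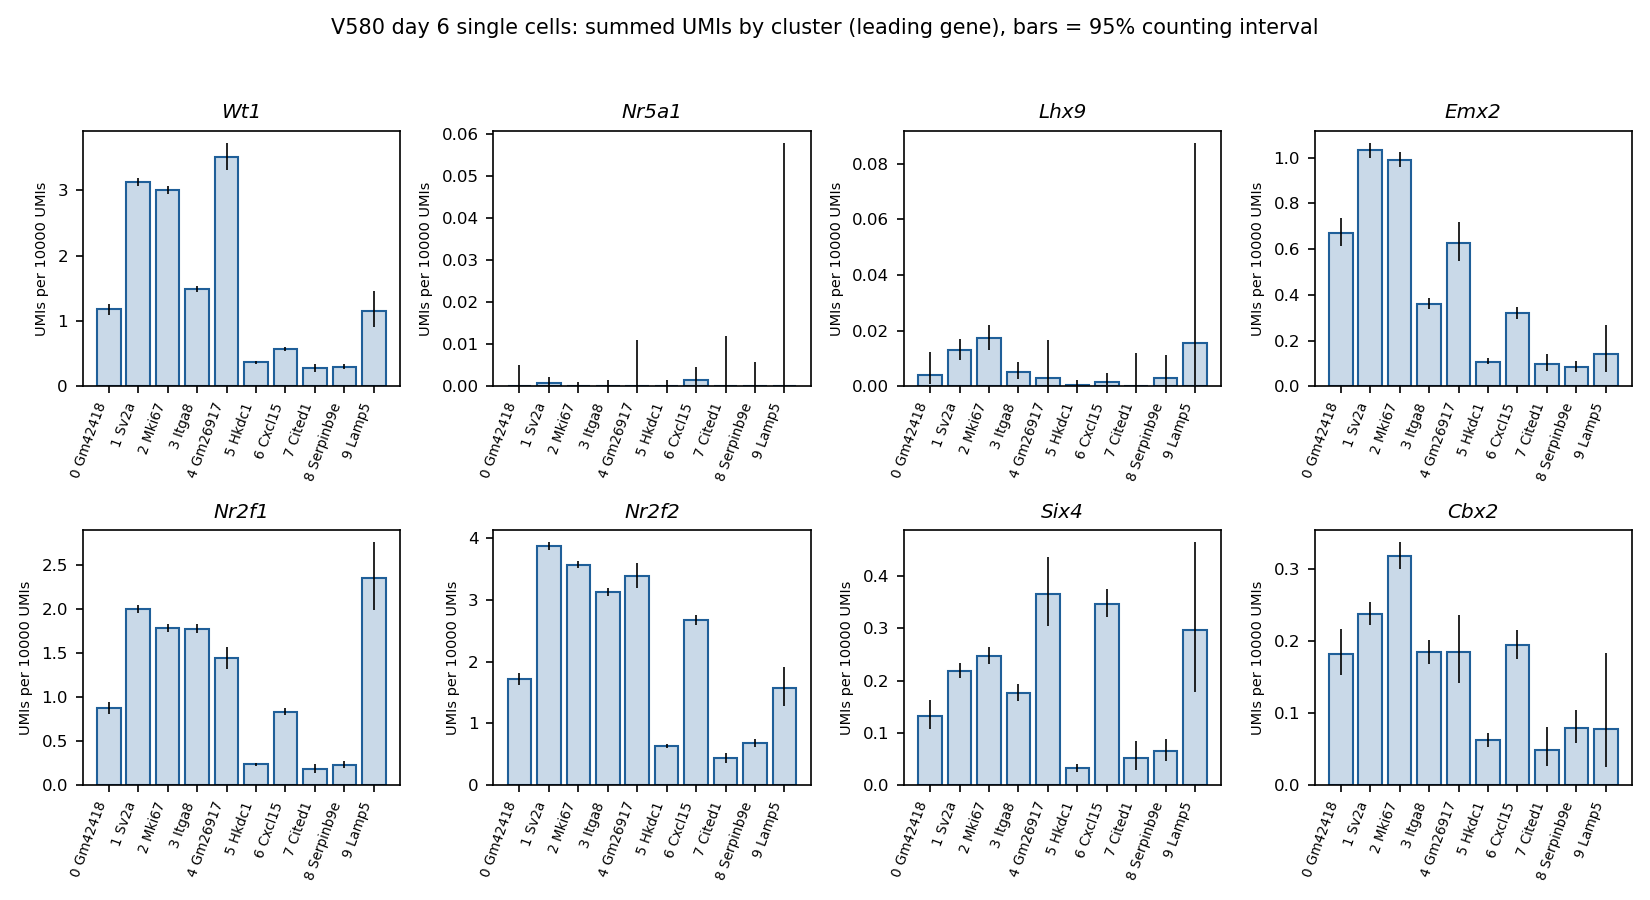
UMIs of each of the 8 genes per 10000 UMIs (vertical axes) in clusters 0 to 9 of the day 6 single-cell library (horizontal axes, by number). Cluster values are shown with 95% exact Poisson intervals, which cover counting error only: Wt1 was near 3 in clusters 1 and 2, highest in the shallow cluster 4 (3.52) and below 0.6 in clusters 5 and 6, whereas Nr2f2 was above 2.6 in clusters 1, 2, 3, 4 and 6.

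Emx2 was highest in clusters 1 and 2, with 1.03 and 0.991 UMIs per 10000, and had 0.628 in cluster 4, where Wt1 was highest, 0.362 in cluster 3, 0.319 in cluster 6 and 0.108 in cluster 5. Nr2f1 had 2.01, 1.79 and 1.78 in clusters 1, 2 and 3, 0.833 in cluster 6 and 0.236 in cluster 5. Its rate was highest in the 66 cells of cluster 9, led by the neuropeptide and neuronal genes Lamp5, Nhlh2 and Sst. The interval of that rate (2.35, 1.99 to 2.76) holds the value of cluster 1. In thinned cells Nr2f1 had a UMI in 26.5% of cluster 9 and 30.3% of cluster 1. Nr2f2 had 3.87, 3.57 and 3.13 in clusters 1, 2 and 3, 3.39 in cluster 4, 2.67 in cluster 6, where Wt1 was low, and 0.639 in cluster 5. In thinned cells Nr2f2 had a UMI in 11.1% of cluster 5 and 52.7% of cluster 1 (44.0% and 94.5% before thinning). Cluster 3 was also the one with the most interstitial marker RNA (26.2 UMIs per 10000 over 7 genes, none at 0, led by Col1a2, against 8.06 in cluster 1). Six4 had its highest rate in the shallow cluster 4 (0.366, 0.304 to 0.437) and was higher in cluster 6 (0.348) than in cluster 1 (0.219). Cbx2 was highest in the cycling cluster 2 (0.318) and low in cluster 5 (0.0623).

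Detection in the same cell was read in the 7315 cells with at least 10000 UMIs. Wt1, Emx2, Nr2f1 and Nr2f2 were found together in 2571 of them (35.2%, exact binomial interval 34.1 to 36.3), in 46.5% of cluster 1, 59.0% of cluster 2, 24.5% of cluster 3, 13.9% of cluster 6 and 6.16% of cluster 5. Of the cells with Wt1, 95.2% also had Nr2f2, against 90.2% of all 7315 cells, and of the cells with Nr2f2, 80.6% had Wt1, against 76.3% of all, so these overlaps lay near the shares of each gene alone. Lhx9 was found in 97 of these cells, 84 of them with Wt1, and Nr5a1 in 6, of which 3 had Wt1. The 6 Nr5a1 cells lay 3 each in clusters 1 and 6. Clusters 0, 4 and 7 were too shallow, at medians of 1456 to 2382 UMIs, for their counts of 0 to 3 UMIs of Nr5a1 and Lhx9 to limit the share of cells with these RNAs.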

How the data were processed

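Bulk RNA-seq libraries were poly(A) selected and made with a kit that does not mark strand. For the stage libraries the authors deposited raw counts per gene, from reads aligned to mm10 with HISAT2 and counted with featureCounts. For the induced cells the authors deposited FPKM, fragments scaled to gene length and library size; the tool behind the FPKM values is not given in the sources used here. For the single cells the authors deposited UMI counts per gene and barcode. A further 10 columns of a germ cell table could not be mapped to a sample and were not used. The members and the gene lists were chosen with earlier results of these data known.

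Stage counts were tested with edgeR 4.0.16 (quasi-likelihood, TMM, all 8 libraries). Genes were called at an adjusted p (Benjamini-Hochberg) below 0.05. FPKM values were tested with limma 3.58.1 on log2(FPKM + 1), in genes with at least 1 FPKM in 3 (days) or 2 (treatments) libraries, and called at an adjusted p below 0.05 and at least 2-fold, a scale that understates changes of low genes. Low FPKM values are whole multiples of 1 fragment: within 0.1, 96.8 to 98.4% of values under 10 fragments came out whole, and edgeR on these fragments was added after seeing the data. It called 39 to 4140 genes per comparison. On simulated data edgeR recovered 100% of 200 genes changed 4-fold for the stages, with 4 false calls. The changed genes were well counted, and the simulated libraries held no lane or length effect. The simulation therefore does not show how smaller changes or such effects are handled. No source says that replicates came from separate cultures or litters, so p-values measure the spread between these samples. Same-numbered samples deviated together in 1 comparison, V580_D4 against E12.5_GC (correlations 0.115, 0.295 and 0.345), where a replicate block changed no call of a member. Named genes were the 8 members, the called genes of the lists and the 3 genes most like each member. Some of these genes are not reported here.

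Cells with under 200 genes or over 40% mitochondrial UMIs were left out (97), and the rest were clustered with scanpy 1.11.5 (2000 variable genes, 20 components, Leiden resolution 0.5). Scrublet called only 2 doublets and was taken not to have worked, so no doublets were removed. Alternatives were DESeq2 1.42.0, other filters and pseudocounts, a gene length offset, the lane tag as a term (added after seeing the data), median centring, a replicate block, no fold limit and leaving out each library.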

Additional observations from a re-analysis of the deposited data

Results flagged for a closer look

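The effect of AM580 on Wt1 differed between the times. It was −0.27 at 24 h and 0.27 at 48 h on log2(FPKM + 1), against the Con libraries of the same time. The difference of the effects was 0.54 (0.5375 before rounding; limma adjusted p = 0.000319), and both libraries lay below both Con libraries at 24 h and above them at 48 h. For V580 the effects were −0.40 and 0.46, and their difference was 0.86 (0.8647 before rounding; limma adjusted p = 4.31e-06), again with both libraries on 1 side at each time. For Vc the difference of the effects was 0.11 (limma adjusted p = 0.616). Neither the AM580 nor the V580 difference reached 2-fold. Of all genes tested, 54.2% did not overlap between AM580 and Con at 24 h and 79.3% at 48 h. Between V580 and Con these shares were 63.4% and 80.5%. Over the 10644 genes tested, 1760 had a positive and 1961 a negative difference of the AM580 effects at an adjusted p below 0.05, and 1681 and 1931 for V580. In Con alone Wt1 was 0.19 higher at 48 h than at 24 h (limma adjusted p = 0.0130).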

How the results depend on the processing

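Of the members' stage calls, those of Emx2, Six4 and Cbx2 at E13.5 were the least stable: without E12.5 replicate 2, 4 members passed the test in place of 7, and over all left-out libraries the count ran from 4 to 7. At E16.5 against E12.5 Nr2f2 missed the threshold without E12.5 replicate 1 (edgeR adjusted p = 0.124) or 2 (0.0736), and at P6w against E13.5 so did Nr2f2 without E13.5 replicate 1 (0.0511) or P6w replicate 1 (0.0599) and Nr5a1 without either of these (0.0681 and 0.0862). With the lane tag as a term, added after seeing the data, Nr5a1 missed the threshold at P6w against E12.5 (0.11, edgeR adjusted p = 0.641) and E13.5 (0.05, adjusted p = 0.822), as did Nr2f2 against E13.5 (−0.28, adjusted p = 0.152), Nr2f1 passed at E16.5 against E13.5 (−0.97, adjusted p = 0.0104), and Cbx2 at P6w against E13.5 changed sign (−0.0677). With the length offset Six4 passed at P6w against E13.5 (−1.44, adjusted p = 0.0394). DESeq2, the gene length offset, the lane tag, the filters and median centring moved no count of calls over all genes by over 1.5 times.

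With no fold limit the members called numbered 6 from day 4 to day 6, 5 to day 8, 5 to day 10, 8 in V580_D8 and 8 in V580_D10 against E12.5_GC. Both counts of 8 include Nr5a1 and Lhx9, whose call the filter fixed, and Six4, which passed the filter only through the induced cells. Among all genes 32.6% were then higher and 30.5% lower at day 8, and 36.3% and 33.2% at day 10. From day to day these shares were 15.0 to 23.0%. At 24 h the members called were 1 with AM580 and 2 with V580, at 48 h 1 each with Vc, AM580 and V580, 1 between V580 and AM580, and 2 between the Con times, and 1 each for the change of the AM580 and V580 effects. Of all genes, 7.16 to 15.5% passed in each direction with AM580 or V580 at 24 h, 6.07 to 6.37% with Vc, 25.7 to 31.2% with AM580 or V580, and 8.51 to 10.7% between these at 48 h, and 32.4 to 33.6% between the Con times. By edgeR on recovered fragments, chosen after seeing the data, the members called were 5 from day 4 to 6, 1 from day 8 to 10 (Lhx9, −1.04, adjusted p = 0.0404), 1 with Vc and 1 with AM580 at 48 h, 2 between V580 and AM580 at 48 h, and 3 between the Con times, where the shares of all genes in either direction were 12.2%, 4.7%, 0.718%, 8.68%, 1.37% and 17.2%. Without any 1 E12.5_GC library Nr5a1 and Lhx9 missed the filter, which leaves 3 members called for V580_D4 (Six4 among them), 2 to 3 for V580_D8 and 2 for V580_D10. Over all genes, no fold limit (309 to 8238 called), edgeR on fragments (39 to 4140) and a pseudocount of 0.1 (21 to 3144) moved the counts of 19, 19 and 15 of 19 comparisons by over 1.5 times.

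Differences near 0 that missed the threshold changed sign. Without 1 library, Nr5a1 at E13.5 against E12.5 ran from −0.0268 to 0.1636, with −0.0117 as another negative value, Emx2 from day 6 to 8 from −0.0939 to 0.0221, with 0.0124, and Nr5a1 from day 8 to 10 from −0.0142 to 0.0003. With Vc at 24 h Cbx2 ran from −0.0094 to 0.0901 and Six4 from −0.0891 to 0.0201, with 0.0052. Cbx2 ran from −0.0537 to 0.0459, with 0.0365, under V580 at 24 h and from −0.0018 to 0.0577 under AM580 at 48 h, and Six4 from −0.0635 to 0.0259 between V580 and AM580 at 24 h. Cbx2 with V580 at 24 h was 0.0089 by edgeR on fragments, and with median centring Six4 was −0.0042 with Vc at 48 h and 0.0133 between the Con times.

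The replicate block changed no count of calls by over 1.5 times; for V580_D6 against V580_D4 same-numbered samples had correlations of 0.0666, 0.00451 and 0.0579, so they shared only a number. For Vc at 24 h a crossed pairing, added after seeing the data, called 9 genes against 9.

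The shares of cells moved with each filter. With at most 10% mitochondrial UMIs they were 54.12% for Wt1, 32.13% for Emx2, 48.29% for Nr2f1, 64.66% for Nr2f2, 16.97% for Six4 and 17.9% for Cbx2. With at least 1000 genes they were 64.62%, 38.22%, 57.56%, 76.66%, 20.72% and 21.56% in that order, and 0.9087% for Lhx9. Thinned, they were 29.34%, 11.55%, 21.76%, 38.96%, 3.891% and 3.752%, with 0.08684% for Lhx9 and 0% for Nr5a1. The alternative without called doublets was not run, since Scrublet called 2 cells; without the 10% of cells of highest doublet score, chosen after seeing the data, Wt1 was at 51.73%, Emx2 at 29.43%, Nr2f1 at 45.09%, Nr2f2 at 61.87% and Cbx2 at 16.02%. Nr5a1 had 0 to 3 UMIs a cluster and at most 8 fragments in each induced library, which limits the precision of its values. The cause of these changes was not tested.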
